A study of Rattus norvegicus with 8 samples.

Results

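Wnt signalling genes were followed in CD9-positive cells sorted from rat testes of young and aged animals. The set comprised the Wnt ligands, the Frizzled receptors and the co-receptors Lrp5 and Lrp6, the receptor turnover genes Lgr4, Lgr5 and Rnf43, the secreted inhibitors of the Sfrp and Dkk families, the cytoplasmic core (Dvl, Axin, Apc, Gsk3b, Ctnnb1) and the transcription factors of the Tcf and Lef family. Members were chosen by gene symbol alone, from probes whose accession matched a rat RefSeq gene. This gave 46 genes on 55 probes, out of 15154 named genes and 30367 probes on the array. For 9 further genes of these families (Dvl2, Fzd7, Fzd10, Sfrp1, Tcf7, Tcf7l2, Wnt2, Wnt3a and Znrf3) no probe was matched, and they were not analysed here.

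Wnt proteins are secreted lipid-modified ligands that bind Frizzled receptors together with Lrp5 or Lrp6. In the canonical branch this stops the destruction complex of Axin, Apc and Gsk3b from marking β-catenin, the product of Ctnnb1, for degradation, and β-catenin then works with Tcf and Lef factors on target genes such as Axin2. Other Wnt proteins, Wnt5a and Wnt5b among them, act mainly through branches that do not need β-catenin. In the testis, undifferentiated spermatogonia include cells that respond to Wnt, and supporting Sertoli cells are one source of ligand.

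The cells came from Sprague-Dawley rats carrying a germ cell-specific green fluorescent protein transgene and were isolated by fluorescence-activated sorting with an antibody to CD9, a surface tetraspanin of spermatogonia that other testis cells also carry. All 8 samples share the strain, the transgene and the sort. They form a young group of 4 arrays (4 months) and an aged group of 4 arrays (21 months), each a one-colour Agilent array hybridised with cRNA made from 18 ng of total RNA. The labels give no promoter for the transgene and do not say whether the arrays came from separate animals or pools, so the spread behind every p-value is that between these samples and could be technical.

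Arrays were scaled to their 75th percentile of probe signal, which lay between 326 and 524 intensity units. The scanner flagged 63.0% to 72.0% of an array's probes as well above background. No spot was saturated. The sorted antigen Cd9, the germ cell helicase Ddx4 and the spermatogonial genes Zbtb16 and Gfra1 were well above background on all 8 arrays, as were 13 of 16 undifferentiated spermatogonia markers with a probe. Markers of spermatids (21 of 22), spermatocytes (22 of 22), peritubular myoid cells and stroma (11 of 16) and macrophages (10 of 16) were also well above background on all arrays. Young replicate 1 stood apart. It correlated with the other young arrays at r of 0.975 to 0.980 over probes, against 0.990 among the other young arrays, and its stromal marker mean was −0.60 where the other young arrays had 1.03 to 1.13 (log2 units, with the 8-array mean of every gene set to 0). In sorted bulk samples, fewer cells of a type and less RNA per cell cannot be told apart.

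The 300 bases around the RefSeq start site are shown for Wnt7a, the member that changed, and for Axin2, the standard readout of the canonical branch, because its window held matches to the Tcf/Lef motif. Each runs from 250 bases before the start to 50 after it (RefSeq, build GRCr8), 5′ to 3′ on the strand of the gene. The Wnt7a window lies at chr4:125466100-125466399 on the minus strand, and its capitals mark GC boxes, CCGCCC being the box on the other strand. The Axin2 window lies at chr10:94398535-94398834 on the plus strand, and its capitals mark Tcf/Lef matches.
Wnt7a: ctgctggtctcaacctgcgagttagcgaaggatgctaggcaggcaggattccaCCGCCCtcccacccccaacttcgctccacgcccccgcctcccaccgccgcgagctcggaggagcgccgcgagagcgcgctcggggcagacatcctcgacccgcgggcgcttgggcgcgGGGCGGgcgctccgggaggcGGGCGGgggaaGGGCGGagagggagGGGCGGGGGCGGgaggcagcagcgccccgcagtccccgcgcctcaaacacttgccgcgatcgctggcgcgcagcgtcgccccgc
Axin2: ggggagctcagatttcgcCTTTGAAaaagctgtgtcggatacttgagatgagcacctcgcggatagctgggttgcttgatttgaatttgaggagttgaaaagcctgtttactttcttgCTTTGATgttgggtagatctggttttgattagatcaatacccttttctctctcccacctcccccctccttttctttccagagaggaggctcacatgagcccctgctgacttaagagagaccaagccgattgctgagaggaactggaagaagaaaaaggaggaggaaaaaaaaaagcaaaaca
The GC box was searched as GGGCGG and the Tcf/Lef motif as CTTTG followed by AA, AT, TA or TT, on both strands and with overlapping matches counted. The Wnt7a window held 6 GC boxes and 0 Tcf/Lef matches, with a GC content of 76.0%. The Axin2 window held 2 Tcf/Lef matches, at positions −232 and −132 from the start, and 0 GC boxes, with a GC content of 45.7%. Of all 33469 promoter windows of this length in the table, 33.1% held a GC box and 17.1% a Tcf/Lef match. The table held windows for 32 of the 46 members, of which 15 had a GC box and 5 a Tcf/Lef match. A match is a description of the letters and not a binding site.

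Of the 46 genes, 23 (50%) were well above background on all 8 arrays, 8 on some arrays and 15 (32.6%) on none, against 64.3%, 16.6% and 19.1% of the 15154 named genes. A gene was counted on an array when at least 0.5 of the spots of any of its probes carried the scanner's flag. Of the cytoplasmic core and transcription factors with a probe, Axin1, Axin2, Apc, Gsk3b, Ctnnb1, Dvl1, Lef1 and Tcf7l1 were seen on all 8 arrays, and Dvl3 on all but aged replicate 3. Of ligands and secreted inhibitors, 6 of 17 and 3 of 7 genes were seen on all arrays. The flag belongs to a probe, and a gene without it may still be expressed.

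Among ligands, Wnt1, Wnt3, Wnt5b, Wnt6, Wnt7a and Wnt11 were above background on all 8 arrays. Wnt4, Wnt7b, Wnt8a, Wnt8b, Wnt9a, Wnt10b and Wnt16 were above it on none. Wnt2b, Wnt5a, Wnt9b and Wnt10a lay between these classes. Among receptors, Fzd3, Fzd6, Fzd9, Lrp5 and Lrp6 were seen on all arrays, Fzd4 and Fzd5 on none, and Fzd1, Fzd2 and Fzd8 on some. Lgr4, a receptor for R-spondins, was seen on all arrays, whereas the related stem cell marker Lgr5 and Rnf43, a ubiquitin ligase that removes Frizzled receptors, were seen on none. The inhibitors Dkk3, Sfrp2 and Sfrp5 were seen on all arrays, and Dkk1, Dkk2, Dkk4 and Sfrp4 on none.

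**Figure D1:**
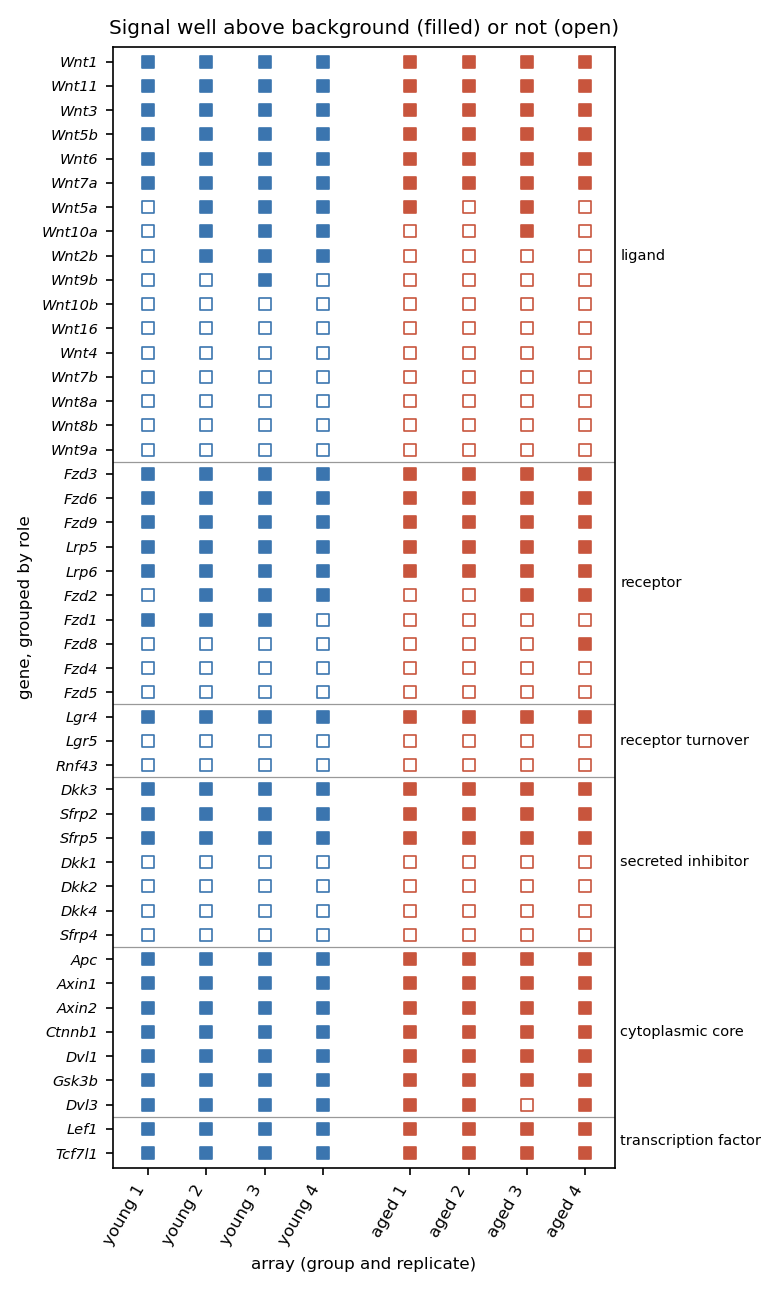
Detection of the 46 Wnt pathway members (rows, grouped by role) on the 4 young (blue) and 4 aged (red) arrays (columns, group and replicate). A filled square marks a gene with at least 0.5 of the spots of a probe well above background; 23 genes are filled on all 8 arrays and 15 on none.

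Several dim members were seen on more young than aged arrays. Wnt2b, a ligand of the canonical branch, was above background on young replicates 2, 3 and 4 and on no aged array. Its log2 signals relative to the 75th percentile of each array were −7.06, −5.31, −5.07 and −5.44 on young replicates 1 to 4 and −6.25, −7.22, −6.51 and −6.96 on aged replicates 1 to 4. The groups overlapped, with young replicate 1 among the aged values. The young mean was 1.82-fold higher when each aged array was set no lower than the dimmest probe that its scanner flags accepted. Young replicate 1 entered that mean at its value below background, so the ratio is not a strict lower bound. Wnt2b was not tested, because it was above background on all arrays of neither group.

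Wnt10a was above background on 3 young arrays and 1 aged array, Fzd2 on 3 and 2, and Wnt5a, a ligand of the branch without β-catenin, on 3 and 2. In each of these genes young replicate 1 was below background while the other young arrays were above it. Fzd1 was above background on 3 young arrays and no aged array. Its young mean was 1.32-fold higher, the plain ratio of the group means, because the floor used for Wnt2b changed no aged value. The Fzd1 groups overlapped, at −5.67 to −5.16 on young and −6.02 to −5.50 on aged arrays. Wnt9b was above it on young replicate 3 alone, and Fzd8 on aged replicate 4 alone. The number of members above background was 25, 29, 30 and 28 on young replicates 1 to 4 and 25, 24, 26 and 26 on aged replicates 1 to 4, so that young replicate 1 fell within the aged range. The share of named genes above background ran from 69.1% to 75.4% on young and from 67.1% to 72.8% on aged arrays. The part of overall detection, or of stromal and other cells, in these counts was not tested.

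Of the 24 members that could be tested, 1 changed with age, the ligand Wnt7a, which was lower in aged cells. Over all 10236 genes tested, 0.655% were called and 0.156% were called lower (limma, Benjamini-Hochberg adjusted p under 0.05). The 4 aged values lay entirely on one side of the 4 young values in 2 members, Wnt7a and Wnt5b (8.33%), against 14.3% of all genes. Both were lower in aged cells, a pattern that 4.12% of all genes showed, and 0 members were higher without overlap, against 10.2% of all genes. An unadjusted limma p under 0.05 was found in 7 members (29.2%) against 31.4% of all genes. The members therefore lay near or below the share of all genes for the unadjusted p, for non-overlap in either direction and for higher values without overlap. For the call and for lower values without overlap they lay above it, with only 1 and 2 members. The median change of the tested members was 0.011 on the log2 scale, aged minus young, and that of all genes 0.11. With scaling to array medians the median over all genes was 0.26, and under spike-in scaling −0.35, so directions of small changes depend on the scaling.

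Wnt7a encodes a ligand that can signal through β-catenin and is best known from the female reproductive tract and the nervous system. Its processed signal was 50.7, 59.9, 93.1 and 88.8 intensity units on young replicates 1 to 4 and 33.3, 34.3, 37.5 and 44.0 on aged replicates 1 to 4, before any scaling between arrays. Relative to the 75th percentile of each array its log2 signals were −2.69, −2.75, −2.43 and −2.20 in young and −3.31, −3.39, −3.41 and −3.57 in aged cells. All young arrays were above all aged arrays on both scales, and young replicate 1 lay with the other young arrays. The log2 change was −0.90 ± 0.14 (SE, n = 4 per group), a 1.87-fold lower signal in aged cells (limma adjusted p = 0.0465, range over the alternatives 0.00157 to 0.272). Relative to the median of all genes it was −1.01.

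The call on Wnt7a rested on all arrays but one. Without young replicate 1 the change was −0.96 (limma adjusted p = 0.00475), and without any other single array it ran from −0.98 to −0.80 and was not called (limma adjusted p from 0.0666 to 0.169). The loss was not particular to Wnt7a. Without any of those other arrays 0 or 1 of all 10236 genes were called, against 3776 without young replicate 1. In none of these fits did the direction turn. With normexp background correction, which adds an offset of 50 to signals of this size, the change was −0.39 with percentile scaling and −0.34 with quantile scaling (limma adjusted p = 0.0664 and 0.0627).

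Some lists of cell type markers also had shifted values between the groups. Over all 10236 genes tested, 63.4% had higher values in aged cells, with a median change of 0.11. The 12 tested markers of peritubular myoid cells and stroma all had lower values in aged cells (median −1.32, 0 called), with list means of −0.60 to 1.13 on young and −1.27 to −0.29 on aged arrays. Lum, Postn and Thy1 of this list were above background on no array. The 22 tested spermatid markers were all lower (median −1.03, 0 called), with list means of −0.53 to 1.11 on young and −1.19 to −0.13 on aged arrays. In both lists young replicate 1 lay within the aged range. For spermatocytes 17 of 22 markers (77.3%) had higher values and 8 were called higher (median 0.73). Their list means were −0.26 to −0.18 on young and −0.0089 to 0.42 on aged arrays, which did not overlap. Of 14 tested markers of undifferentiated spermatogonia 5 (35.7%) had higher and 9 lower values (median −0.13, 0 called). Their list means of −0.022 to 0.26 on young and −0.14 to −0.034 on aged arrays also did not overlap, by a narrow margin. Young replicate 1 was the highest, and the other young arrays lay between −0.022 and 0.038. The 13 tested macrophage markers were all lower (median −0.72, 0 called, Itgam above background on no array), with list means of −0.47 to 0.996 on young and −1.36 to 0.49 on aged arrays. Of 12 tested Sertoli markers 7 (58.3%) had higher values, near the share of all genes, and 1, Rhox5, was called higher. Their list means were −0.42 to 0.27 on young and −0.37 to 0.28 on aged arrays, and Gdnf was above background on no array. The tested Leydig (9), endothelial (6) and lymphocyte (5) markers had medians of 0.066, −0.41 and 0.0066 with 0 called. Those of differentiating spermatogonia (4) and of germ cells in general (6) had medians of 0.0020 and −0.053 with 0 called. The part of these cell types in the Wnt7a difference was not tested.

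Wnt5b, a ligand of the branch without β-catenin, had the next smallest p among members. Its log2 signals were −3.33, −3.0, −2.84 and −2.89 on young replicates 1 to 4 and −3.81, −3.53, −3.56 and −3.50 on aged replicates 1 to 4. The groups did not overlap, and young replicate 1 lay nearer to the highest aged array than to the other young arrays. The change of −0.59 ± 0.14 (SE, n = 4 per group) did not pass (limma adjusted p = 0.0561). It passed without young replicate 1, at −0.69 (limma adjusted p = 0.00526), and was −0.19 or −0.15 with normexp correction and percentile or quantile scaling.

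The other ligands measured did not pass. Wnt3, Wnt11, Wnt1 and Wnt6 had limma adjusted p-values of 0.232, 0.312, 0.978 and 0.944. The Wnt11 probe that stood for the gene had a change of 0.21. A second Wnt11 probe, also above background on all 8 arrays, had a change of 0.0067 (adjusted p = 0.978 in a limma fit over all 11950 named probes kept). Wnt6, a ligand described in Sertoli cells, was the most variable tested member. Its log2 signals were −5.35, −3.57, −3.59 and −3.61 on young replicates 1 to 4 and −3.49, −4.90, −3.42 and −4.08 on aged replicates 1 to 4. Young replicate 1 and aged replicate 2 were low and the other arrays formed 1 range across both ages. Those same arrays had the lowest marker means of their groups for Sertoli cells (−0.42 and −0.37), Leydig cells (−0.51 and −0.54), endothelium (−0.29 and −0.44), stroma, spermatids, macrophages and lymphocytes, and the part of those cells in the Wnt6 values was not tested. Wnt1, the founding member of the family, lay between −2.97 and −1.83 on young and between −2.67 and −2.42 on aged arrays, with young replicate 1 the highest.

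**Figure D2:**
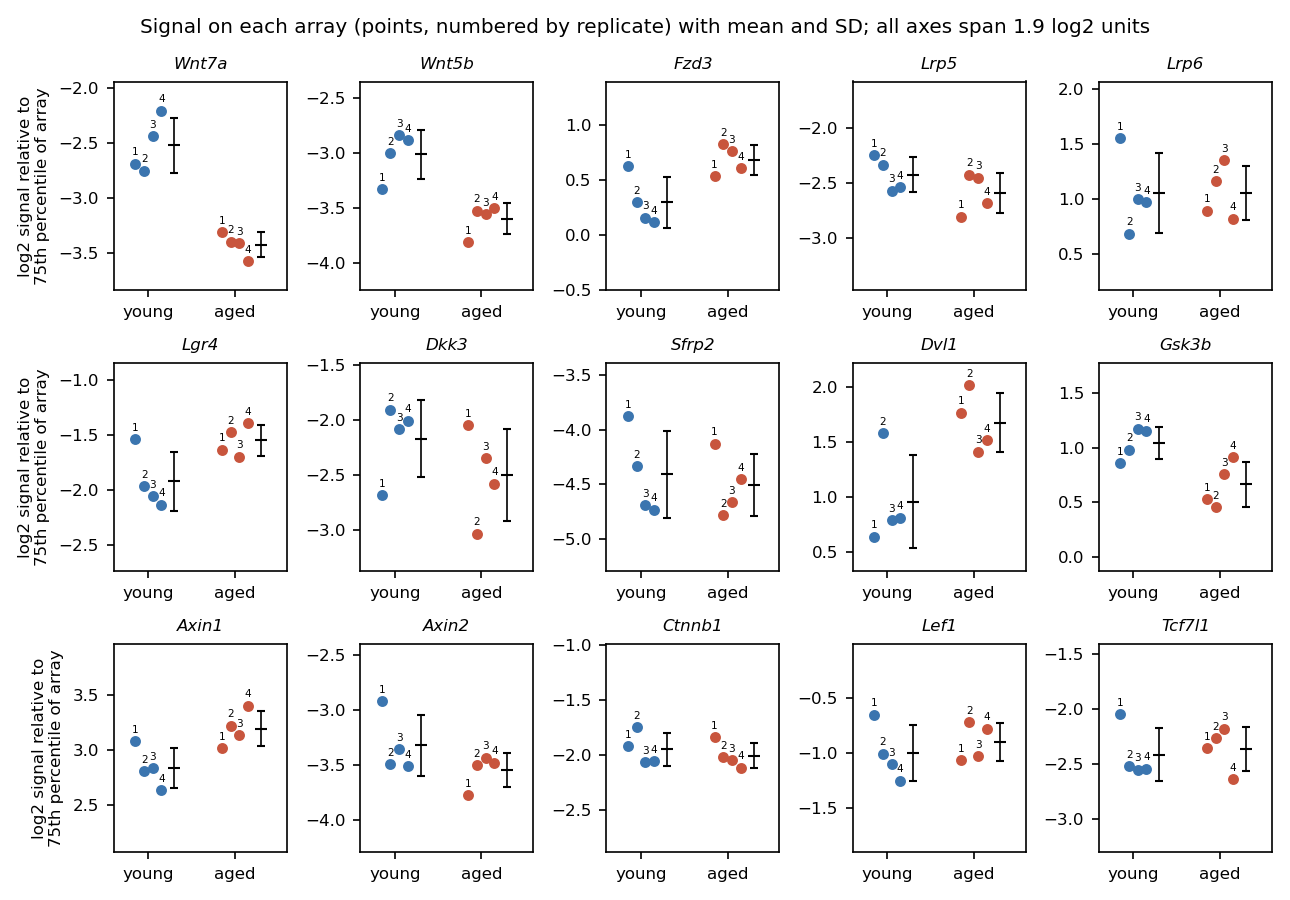
Log2 signal relative to the 75th percentile of the array (vertical axis) of 15 Wnt pathway members on the young (blue) and aged (red) arrays; points are arrays numbered by replicate, and the black mark and bar are the mean and SD of the 4 arrays. Wnt7a and Wnt5b show separate groups, and in Fzd3, Lrp5, Lrp6, Lgr4, Sfrp2, Axin1, Axin2, Lef1 and Tcf7l1 young replicate 1 is the highest young array.

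None of the 5 tested receptors passed. Fzd3, a Frizzled receptor known mainly from planar polarity, had log2 signals of 0.62, 0.30, 0.15 and 0.11 on young replicates 1 to 4 and 0.53, 0.82, 0.76 and 0.60 on aged replicates 1 to 4. Young replicate 1 lay among the aged arrays and the other young arrays lay below them. The change was 0.38 ± 0.14 (SE, n = 4 per group, limma adjusted p = 0.110), and without young replicate 1 it passed at 0.49 (limma adjusted p = 0.0117). With scaling to spike-in RNA, which shifts every gene by the same amount, it was −0.071, and relative to the median of all genes it was 0.28 under both scalings.

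The co-receptors Lrp5 and Lrp6 were measured on every array. Lrp5 had log2 signals of −2.25, −2.34, −2.57 and −2.54 on young replicates 1 to 4 and −2.81, −2.43, −2.45 and −2.69 on aged replicates 1 to 4. The groups overlapped and the change was −0.17 ± 0.13 (SE, n = 4 per group, limma adjusted p = 0.390, 95% interval −0.46 to 0.13). Lrp6 had log2 signals of 1.55, 0.68, 0.99 and 0.97 on young and 0.89, 1.16, 1.35 and 0.82 on aged replicates 1 to 4. Its groups overlapped throughout, and the change was 0.0065 ± 0.198 (SE, n = 4 per group, limma adjusted p = 0.986, 95% interval −0.44 to 0.45). A second Lrp6 probe gave 0.16 ± 0.13 (adjusted p = 0.400 in a limma fit over all 11950 named probes kept). Fzd6 was measured by 2 probes with changes of 0.051 and 0.14, and neither passed (adjusted p = 0.870 and 0.578 in that limma fit), nor did Fzd9 (limma adjusted p = 0.982 over genes).

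Of the receptor turnover genes Lgr4 alone was measured. Lgr4 had log2 signals of −1.54, −1.97, −2.06 and −2.13 on young replicates 1 to 4 and −1.63, −1.47, −1.70 and −1.39 on aged replicates 1 to 4. As with Fzd3, young replicate 1 lay among the aged arrays and the other young arrays lay below them. The change was 0.37 ± 0.15 (SE, n = 4 per group, limma adjusted p = 0.132) and passed without young replicate 1 at 0.50 (limma adjusted p = 0.0113). Under spike-in scaling Lgr4 stood at −0.083. Relative to the median of all genes it stood at 0.27 under both scalings, which a shift common to all genes cannot change, and at 0.37 under quantile scaling.

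The secreted inhibitors had lower or level values and none passed (0 of 3 called). Dkk3, a divergent member of the Dickkopf family, had log2 signals of −2.68, −1.91, −2.08 and −2.01 on young replicates 1 to 4 and −2.05, −3.03, −2.35 and −2.58 on aged replicates 1 to 4. Young replicate 1 was low within its group and aged replicate 2 within its own, the same arrays that were low for Wnt6. The change was −0.33 ± 0.24 (SE, n = 4 per group, limma adjusted p = 0.351), −0.50 without young replicate 1 (limma adjusted p = 0.0983) and −0.15 without aged replicate 2 (limma adjusted p = 0.691). Sfrp2, a soluble decoy with a Frizzled-like domain, had log2 signals of −3.88, −4.33, −4.69 and −4.73 on young and −4.13, −4.78, −4.66 and −4.45 on aged replicates 1 to 4. The groups overlapped and the change was −0.097 ± 0.216 (SE, n = 4 per group, limma adjusted p = 0.778). Sfrp5, of the same decoy family, was measured by 2 probes with changes of −0.011 and 0.23 (adjusted p = 0.978 and 0.421 in the limma fit over probes).

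All 7 cytoplasmic core genes with a probe were tested, and 0 were called. Dvl1, the Dishevelled protein that carries the signal from the receptor, had the largest positive change among members. Its log2 signals were 0.64, 1.58, 0.79 and 0.81 on young replicates 1 to 4 and 1.77, 2.02, 1.41 and 1.52 on aged replicates 1 to 4. Young replicate 2 lay within the aged range and the other young arrays lay below all aged arrays. The change was 0.72 ± 0.22 (SE, n = 4 per group, limma adjusted p = 0.0848), it was 0.93 without young replicate 2 (limma adjusted p = 0.0693), and it was 0.61 without aged replicate 2 (limma adjusted p = 0.204). It passed with scaling to array medians (0.88, limma adjusted p = 0.0380) and was 0.27 with scaling to spike-in RNA (limma adjusted p = 0.509). Relative to the median of all genes it was 0.62 under the main, median and spike-in scalings. These differ only by a shift common to all genes, so this value could not differ between them. Under quantile scaling it was 0.53.

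The destruction complex showed values in both directions. Gsk3b, the kinase that phosphorylates β-catenin, had log2 signals of 0.86, 0.98, 1.17 and 1.15 on young replicates 1 to 4 and 0.53, 0.46, 0.76 and 0.91 on aged replicates 1 to 4. The groups overlapped by 1 array each, and the change was −0.38 ± 0.14 (SE, n = 4 per group, limma adjusted p = 0.109). Without young replicate 1 Gsk3b passed (limma adjusted p = 0.0345). Axin1, the scaffold of the complex, had log2 signals of 3.08, 2.81, 2.84 and 2.64 on young and 3.02, 3.23, 3.14 and 3.40 on aged replicates 1 to 4. Here too young replicate 1 alone reached the aged range. The change of 0.36 ± 0.13 (SE, n = 4 per group, limma adjusted p = 0.114) passed without that array at 0.44 (limma adjusted p = 0.0230). Under spike-in scaling Axin1 was at −0.0996. Relative to the median of all genes it was 0.25 under both scalings, which a shift common to all genes cannot change, and 0.12 under quantile scaling.

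Axin2, which the canonical branch induces and which in turn restrains it, had log2 signals of −2.92, −3.49, −3.36 and −3.51 on young replicates 1 to 4 and −3.77, −3.50, −3.43 and −3.48 on aged replicates 1 to 4. Except for young replicate 1, which was the highest, and aged replicate 1, which was the lowest, the arrays lay within 1 narrow range. The change was −0.23 ± 0.15 (SE, n = 4 per group, limma adjusted p = 0.329, 95% interval −0.58 to 0.12) and −0.093 without young replicate 1. Ctnnb1, which encodes β-catenin, had log2 signals of −1.92, −1.75, −2.06 and −2.05 on young and −1.84, −2.02, −2.05 and −2.11 on aged replicates 1 to 4. The groups overlapped and the change was −0.058 ± 0.116 (SE, n = 4 per group, limma adjusted p = 0.753, 95% interval −0.32 to 0.20). Neither the scaffold Apc (limma adjusted p = 0.207) nor Dvl3 (limma adjusted p = 0.375) passed.

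Of the transcription factors, Lef1 had log2 signals of −0.65, −1.01, −1.11 and −1.25 on young replicates 1 to 4 and −1.07, −0.73, −1.03 and −0.78 on aged replicates 1 to 4. Its groups overlapped, and the change was 0.10 ± 0.15 (SE, n = 4 per group, limma adjusted p = 0.652, −0.35 with scaling to spike-in RNA). Another Lef1 probe was above background on no array. Tcf7l1, which mostly represses target genes, had log2 signals of −2.05, −2.52, −2.55 and −2.54 on young and −2.36, −2.27, −2.18 and −2.64 on aged replicates 1 to 4, a change of 0.056 ± 0.154 (SE, n = 4 per group, limma adjusted p = 0.823). Its probes disagreed. The dimmer probe had log2 signals of −4.21, −4.07, −4.14 and −4.24 on young and −4.92, −4.46, −4.71 and −4.33 on aged replicates 1 to 4, all aged values lower, with a change of −0.44 ± 0.14 that did not pass (adjusted p = 0.0931 in the limma fit over probes).

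**Figure D3:**
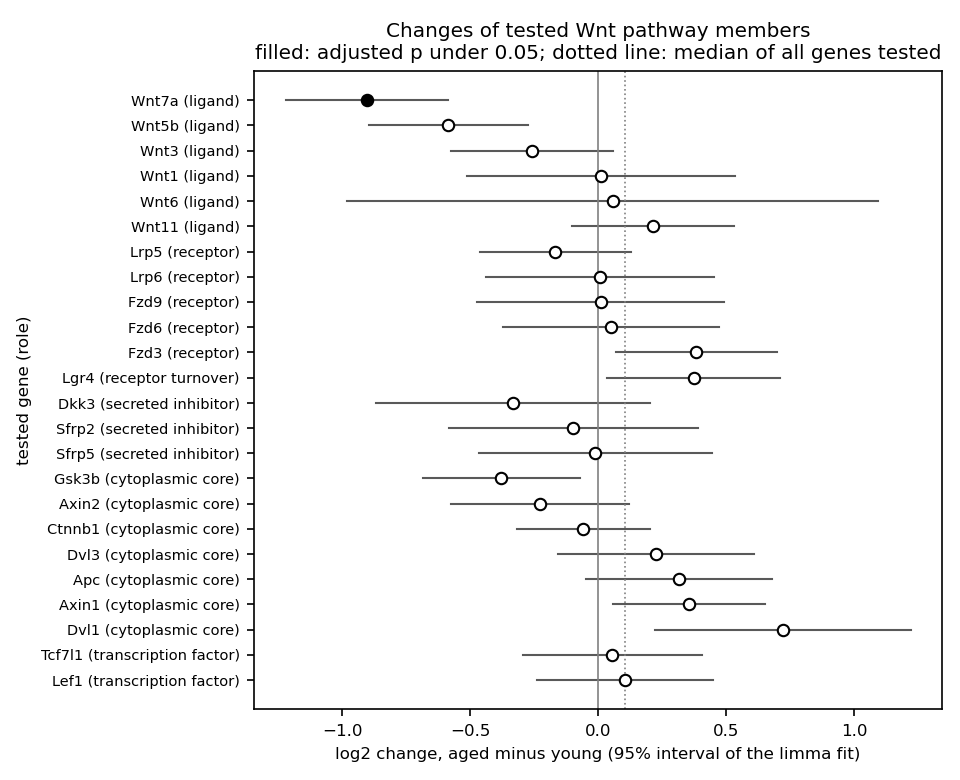
Log2 change, aged minus young (horizontal axis), of the 24 tested members with the 95% interval of the limma fit, ordered by role. Wnt7a, filled, is the only member with an adjusted p under 0.05; the dotted line marks the median of all 10236 genes tested at 0.11, and the interval of most members spans it.

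Young replicate 1 set how many members passed. Without it 7 of the 24 (29.2%) passed in limma, against 36.9% of all genes, comprising Wnt7a, Wnt5b and Gsk3b as lower and Axin1, Fzd3, Lgr4 and Wnt11 as higher. Wnt11 passed by its brighter probe, and its second probe had a change of 0.0067 with every array in the fit. Without any other single array 0 members passed. Of all 10236 genes, 1 passed without young replicate 2 and 0 without each of the rest.

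**Figure D4:**
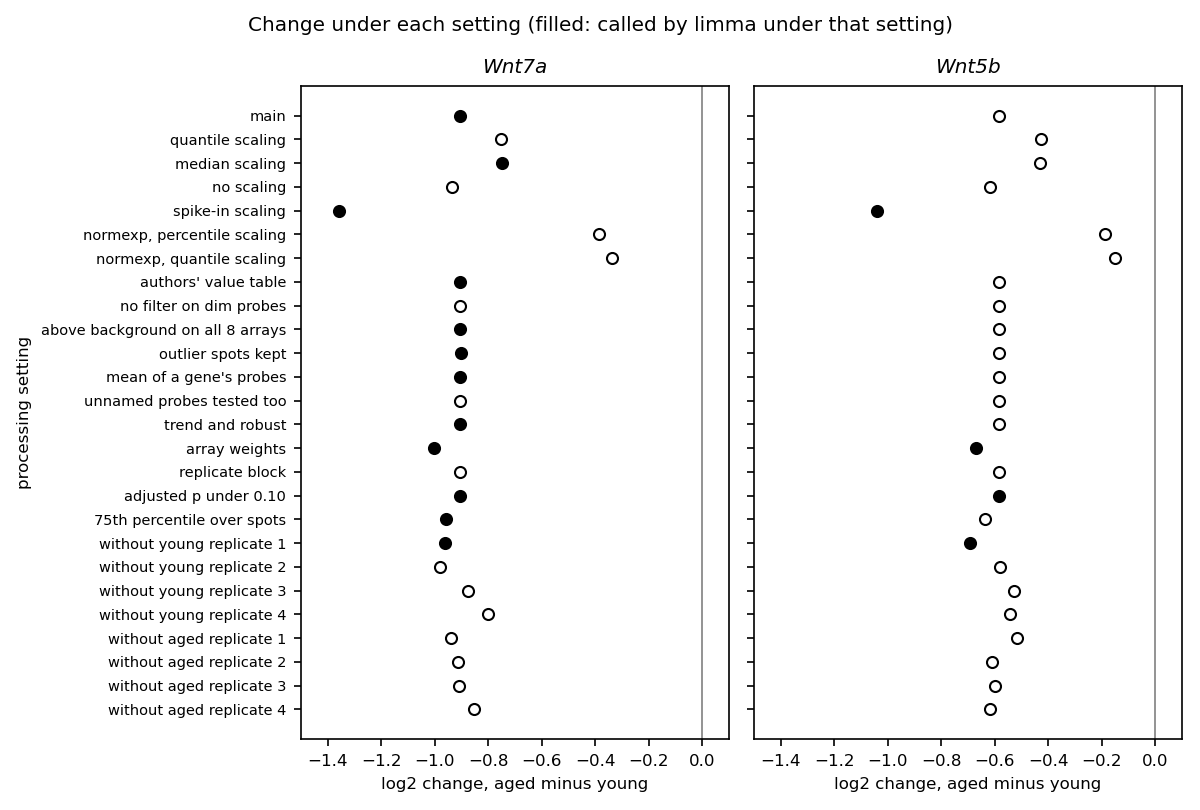
Log2 change, aged minus young (horizontal axis), of Wnt7a and Wnt5b under the main processing and each alternative (vertical axis). Filled points were called by limma under that setting; every point lies below 0, the Wnt7a values run from −1.36 to −0.34, and those of Wnt5b from −1.04 to −0.15.

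Other genes of the pathway, from lists set by role, gave 0 calls among 69 genes tested. Their median change was 0.093 beside 0.11 for all genes. An unadjusted limma p under 0.05 was found in 13 of them (18.8%), against 31.4% of all genes. Young and aged groups did not overlap in 7 of the 69 (10.1%, against 14.3% of all genes), 4 higher and 3 lower in aged cells. For ligand release and agonists, 2 of 7 genes with a probe were tested. Porcn, the enzyme that lipidates Wnt proteins, had a change of 0.11 (limma adjusted p = 0.535). Wls, the carrier that brings Wnt proteins to the cell surface, had log2 signals of −4.13, −2.59, −2.23 and −2.31 on young replicates 1 to 4 and −3.39, −4.90, −3.91 and −3.60 on aged replicates 1 to 4. Young replicate 1 and aged replicate 2 were again the lowest of their groups, and the change of −1.14 ± 0.46 (SE, n = 4 per group) did not pass (limma adjusted p = 0.134). Wls was above background on 4 young and 3 aged arrays.

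Among target genes, 17 were tested, with a median of 0.035. Zfp703 had a change of −1.08 (limma adjusted p = 0.0561) with all young arrays higher. It was above background on 4 young but only 2 aged arrays and was tested through its young arrays, so its change is uncertain. Ccnd2, a cyclin of the first gap phase, had a change of −0.79 (limma adjusted p = 0.0705). It was also in the list of differentiating spermatogonia markers, and the part of those cells was not tested. Ccnd2 had log2 signals of −0.91, −1.32, −1.08 and −1.32 on young and −2.18, −2.44, −1.65 and −1.51 on aged replicates 1 to 4, and all young arrays were higher. In the other cytoplasmic genes (16 tested, median 0.055) the kinase Csnk1a1, which primes β-catenin for Gsk3b, had a change of −0.63 (limma adjusted p = 0.0826) with all young arrays higher, and Nkd2, a Dishevelled antagonist, one of 0.37 (limma adjusted p = 0.179). In the nuclear genes (15 tested, median 0.15) the β-catenin co-factor Bcl9 had a change of 0.39 (limma adjusted p = 0.0996). All aged arrays were higher for Bcl9. Ruvbl2 had a change of 0.32 (limma adjusted p = 0.123). In the polarity and calcium genes (14 tested, median 0.10) Nfatc4, a calcium-responsive factor, had a change of −1.05 and the kinase Mapk9 one of 0.47 (limma adjusted p = 0.0712 for both). All aged arrays were higher for Mapk9, and the Nfatc4 groups overlapped. The other receptors Ryk and Ror2 had changes of 0.29 and −0.27, and the inhibitors Igfbp4 and Dkkl1 of 0.29 and −0.22 (limma adjusted p = 0.156, 0.336, 0.223 and 0.425).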

How the data were processed

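RNA of CD9-positive testis cells was measured on 8 one-colour arrays, 4 for each age that the labels name. The scanner files were written by Agilent Feature Extraction 10.7.3.1, per the file headers (12.5 per the submitters' processing notes). Their processed signal is a deposited intensity, after the software's removal of local background and spatial trend and before any scaling across arrays. The median signals of spot and surroundings are unprocessed deposited intensities, and flags of 0 or 1 mark spots that are bright enough, saturated or outlying. The authors' series table holds log2 values with each probe's 8-array median set to 0, and their scaling before that stays unknown.

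Without control and outlier spots, log2 signals were averaged per probe and reduced by the array's 75th percentile over probes. Accessions without version were matched to RefSeq symbols (GRCr8, names and promoter windows only): 17998 of 30367 probes matched 15154 genes. Probes stayed in when, in 1 group or both, every array had 0.5 or more of the spots flagged as well above background, with 2 or more values in each group. The brightest remaining probe stood for a gene. The 10236 genes left were tested with limma 3.58.1 in R 4.3.3 (lmFit and eBayes, two-sided), with Benjamini-Hochberg adjustment over all of them. The script was tested on simulated data. All arrays lay on 1 slide, young in one row and aged in the other, so slide row and age cannot be told apart. The number of arrays limits the precision.

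Members, lists, rules and alternatives were chosen with earlier results of these data known. Per-array values are given for members that were called, had an unadjusted p under 0.05 or separated groups, otherwise for up to 2 members of each role with the smallest p, and for Axin2, Lef1, Ctnnb1, Lrp5, Lrp6 and Gsk3b. Wnt1, Wnt6 and the dim members were added after their values were seen. Of other pathway genes the 2 with the smallest p per list are named. Alternatives covered scaling, normexp background correction on the median signals, the authors' table, filters, the threshold, the choice among probes, variance modelling, weighting of arrays, the replicate block and single arrays left out. The percentile over spots was added after seeing the data. The files used here hold no gene name column, so naming genes by it was not run, nor was a slide block, with 1 slide.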

Additional observations from a re-analysis of the deposited data

Results flagged for a closer look

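Tcf7l1 on young replicate 1 stood at −2.05, far from the other young arrays (−2.55 to −2.52), with a gap of 0.937 of the whole range of the group. It came from 30 groups of 4 values, of which chance flags about 1 in 20 by Dixon's test.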

How the results depend on the processing

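Under every alternative run Wnt7a and Wnt5b kept their direction, and Wnt7a lost its call under 14 of 25. Against 67 genes and 1 member called, median scaling called 1330 genes (80.2% higher in aged cells, against 76.1%). It called 2 members (8.33%, against 13% of all genes) and 4 of the 69 other pathway genes, with a members' median of 0.17. Spike-in scaling called 1067 genes (0.562% higher), 5 members (20.8%, against 10.4% of all genes) and 8 of the 69 other pathway genes. Under it 8 members did not overlap (33.3%, against 15.6% of all genes), and the members' median was −0.44. Lrp6 was then −0.45, Tcf7l1 −0.40, Lef1 −0.35, Axin1 −0.0996, Lgr4 −0.083 and Fzd3 −0.071. Quantile scaling called 0 members (median 0.15; Ctnnb1 0.061, Lrp6 −0.046, Sfrp2 0.098). Median scaling also turned Ctnnb1 to 0.098 and Sfrp2 to 0.058. Without scaling 0 genes and 0 members were called by limma (1389 genes at an unadjusted p under 0.05). Then 1 member did not overlap (4.17%, against 7.17% of all genes), and Lrp6 was −0.025. Normexp with percentile scaling called 630 genes (57.6% higher) and 0 members (Ctnnb1 0.033, Lrp6 −0.047, Sfrp2 0.024). Normexp with quantile scaling called 253 genes (86.6% higher) and 0 members (Axin2 0.0011, Ctnnb1 0.091, Lrp6 −0.093, Sfrp2 0.015). With it 1 member did not overlap (4.17%, against 14.7% of all genes). No filter on dim probes, and testing unnamed probes too, each called 0 genes and 0 members (3339 and 4929 at an unadjusted limma p under 0.05). The trended robust variance called 270 genes. Array weights called 4530 genes (63.1% higher), 8 members (33.3%, against 44.3% of all genes) and 21 of the 69 other pathway genes. The members' median was then 0.12, with Sfrp2 at 0.046. An adjusted p under 0.10 called 1674 genes (56.5% higher), 3 members and 6 other pathway genes. The percentile over spots, added after seeing the data, called 98 genes (57.1% higher), with Lrp6 at −0.046, and the mean of a gene's probes turned Tcf7l1 to −0.19.

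With the replicate block 0 genes and 0 members were called by limma (3231 genes at an unadjusted p under 0.05; Wnt7a adjusted p = 0.0773). The deviations of same-numbered arrays correlated at −0.26, −0.12, 0.44 and 0.35, so the numbers were not taken as a pairing, and not every array correlated best with its own number. With single arrays left out, 0 to 3776 genes, 0 to 7 members and 0 to 20 other pathway genes were called, and the members' median ran from −0.024 to 0.13. In these fits 2 to 7 members did not overlap (8.33% to 29.2%, against 15.3% to 46.3% of all genes). The high counts came without young replicate 1 (60.4% of its calls higher). Over the 8 arrays left out in turn, Ctnnb1 ran from −0.11 to 0.0086, Lrp6 from −0.12 to 0.17, Sfrp2 from −0.22 to 0.080 and Tcf7l1 from −0.0046 to 0.18. The cause of these changes was not tested. Signals near background limit what can be said of the 22 untested members.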
